A study of Homo sapiens with 16 samples.

Results

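The genes described are 8 targets that the EWSR1-FLI1 fusion protein is known to activate in Ewing sarcoma: NKX2-2, SOX2, BCL11B, EGR2 and GLI1, which encode transcription factors, PRKCB and VRK1, which encode kinases, and STEAP1, which encodes a cell-surface protein. Their members are all peaks of the deposited lists that overlap 1 of 8 fixed hg19 windows around these genes. The rule goes by position around each gene and uses no measured value, though the windows were chosen with earlier results of these data known. They span 1.63 Mb, which is 0.0537% of chromosomes 1 to 22 and X, and hold 193 of the 114213 listed peaks. They are 21.38 to 21.60 Mb of chromosome 20 for NKX2-2, 181.38 to 181.48 Mb of chromosome 3 for SOX2, 99.58 to 99.80 Mb of chromosome 14 for BCL11B and 64.50 to 64.75 Mb of chromosome 10 for EGR2. Those of the remaining genes are 57.84 to 57.88 Mb of chromosome 12 for GLI1, 23.80 to 24.28 Mb of chromosome 16 for PRKCB, 97.20 to 97.40 Mb of chromosome 14 for VRK1 and 89.73 to 89.85 Mb of chromosome 7 for STEAP1.

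The data come from chromatin immunoprecipitation with sequencing of 2 established Ewing sarcoma cell lines, TC-71 and TC-32. By their labels TC-71 is post-chemotherapy and TC-32 is diagnosis, both were grown in RPMI medium with serum, and the labels name no treatment. BORIS, SMC1 and H3K27ac were each precipitated in 2 samples per line beside 2 input samples, 16 samples in all, and the values used come from 6 deposited peak lists. A list stands for both samples of a line and antibody, so no value has a replicate error, no difference between TC-71 and TC-32 could be tested, and read depth is unknown. The lines are also 1 line each, so the phase of therapy and every other difference between these lines cannot be told apart.

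In Ewing sarcoma a translocation joins the activation domain of EWSR1 to the DNA-binding domain of an ETS factor, usually FLI1. As background from the literature, the fusion binds single ETS sites and tandem GGAA repeats, recruits acetyltransferases and opens enhancers there. NKX2-2 and NR0B1 are among its best-known targets, and NKX2-2 staining is used in diagnosis. H3K27ac is found at active promoters and enhancers. SMC1 belongs to the cohesin ring, which holds chromatin loops and often stops at CTCF sites. BORIS, encoded by CTCFL, has zinc fingers like those of CTCF and is normally limited to the germ line. The fusion itself was not precipitated here, so its binding in the windows was not measured. No RNA was measured, so the labelled cell type could not be checked by expression of its markers, and H3K27ac was listed in the NKX2-2 window in both lines.

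RefSeq promoter sequences (GRCh38.p14) were found for 6 of the 8 genes, 9 start sites in all, and 3 of them are printed to show what stands before the start of STEAP1, whose window held BORIS, and of SOX2 and EGR2, the genes with the least listed acetylation in TC-32 among the 6. Each run is the 250 bases before the start, 5′ to 3′ on the strand of the gene. Capitals mark the ETS core GGAA, read as TTCC on the other strand, and the CTCF-type core AGGNGGCGC, read as GCGCCNCCT on the other strand. The build is not that of the peaks, so where these bases lie relative to a peak was not determined.
STEAP1, chr7:90154219-90154468, plus strand: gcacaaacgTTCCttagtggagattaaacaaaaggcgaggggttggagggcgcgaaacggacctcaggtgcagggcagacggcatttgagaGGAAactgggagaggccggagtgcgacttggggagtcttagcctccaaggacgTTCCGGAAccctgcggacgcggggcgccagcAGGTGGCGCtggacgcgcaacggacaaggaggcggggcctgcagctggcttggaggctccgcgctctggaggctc
SOX2, chr3:181711675-181711924, plus strand: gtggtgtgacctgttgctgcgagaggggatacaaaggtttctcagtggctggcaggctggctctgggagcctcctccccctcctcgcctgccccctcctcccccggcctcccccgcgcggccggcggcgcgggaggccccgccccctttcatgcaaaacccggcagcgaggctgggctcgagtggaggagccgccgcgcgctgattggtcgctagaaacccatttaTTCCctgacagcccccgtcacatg
EGR2, chr10:62819168-62819417, minus strand, first of 3 listed starts: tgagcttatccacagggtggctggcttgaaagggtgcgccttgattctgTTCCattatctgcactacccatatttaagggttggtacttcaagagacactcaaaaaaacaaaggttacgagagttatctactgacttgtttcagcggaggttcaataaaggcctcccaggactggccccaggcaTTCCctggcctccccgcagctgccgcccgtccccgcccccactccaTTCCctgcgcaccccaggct

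GGAA occurred on either strand in 6 of the 9 promoter sequences, covering 4 of the 6 genes, against 92.7% of all 35116 RefSeq promoters of this length. It had 4 matches before STEAP1, 1 before SOX2 and 3 before the first start of EGR2. The tandem GGAAGGAA, which is in 3.06% of all promoters, and the longer ETS site CCGGAAGT, in 3.42%, were in none (0) of the 9. The CTCF-type core was searched for after the STEAP1 sequence had been seen, and it is in 4.11% of all promoters. Among the 9 sequences it was in that of STEAP1 alone, as AGGTGGCGC starting 75 bases before the start. These are matches of letters in a short stretch, and the GGAA repeats that the fusion uses at distant enhancers were not searched, since hg19 sequence was not used here.

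The first question was how far acetylation and cohesin reach in the windows in each line. H3K27ac covered 156.9 kb of the windows in TC-71, in 71 domains, and 201.9 kb in TC-32, in 49 domains. That is 9.62% of the windows in TC-71, where the whole list covers 1.41% of chromosomes 1 to 22 and X, and 12.4% in TC-32, where it covers 2.15%. The windows lie around genes and the chromosome lengths include all other sequence. Windows around other genes were not compared, so the contrast cannot be called particular to these targets. The lines took opposite places from gene to gene. H3K27ac covered more sequence in TC-71 in 5 windows (VRK1, STEAP1, SOX2, EGR2 and GLI1) and more in TC-32 in 3 (NKX2-2, PRKCB and BCL11B). Over the whole lists the TC-71 domains cover 0.653 times as much sequence as the TC-32 domains (42.7 Mb against 65.4 Mb), and the same 5 windows lie above that ratio.

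**Figure D1:**
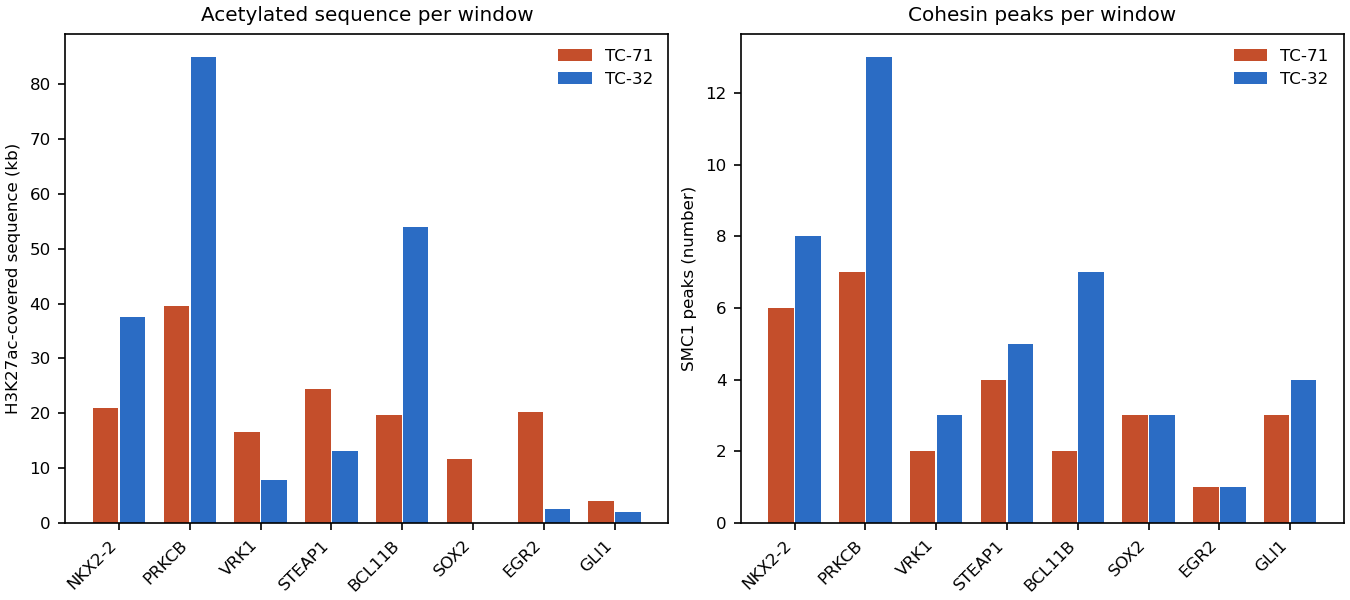
Kilobases covered by H3K27ac domains (left) and number of SMC1 peaks (right) in each gene window, in TC-71 (red) and TC-32 (blue); each bar is 1 deposited list, so there are no error bars. The acetylated sequence is longer in TC-32 for NKX2-2, PRKCB and BCL11B and longer in TC-71 for the other windows, with no TC-32 domain at SOX2, while no window has more SMC1 peaks in TC-71 in the lists as deposited. The whole SMC1 list is also longer in TC-32 (32720 peaks) than in TC-71 (18264).

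In TC-71 the order of the windows by acetylated sequence was PRKCB (39.5 kb), STEAP1 (24.5 kb), NKX2-2 (20.9 kb), EGR2 (20.2 kb), BCL11B (19.7 kb), VRK1 (16.6 kb), SOX2 (11.6 kb) and GLI1 (3.91 kb). In TC-32 it was PRKCB (85.0 kb), BCL11B (54.0 kb), NKX2-2 (37.6 kb), STEAP1 (13.03 kb), VRK1 (7.81 kb), EGR2 (2.5 kb), GLI1 (1.94 kb) and SOX2 (0 kb). PRKCB headed both orders, in the longest window. As a share of the window the order was different. In TC-71 STEAP1 (20.4%) and SOX2 (11.6%) then led, the others lay between 8.07% at EGR2 and 9.77% at GLI1, and PRKCB (8.23%) was next to last. In TC-32 BCL11B (24.5%) led, before PRKCB (17.7%), NKX2-2 (17.1%) and STEAP1 (10.9%), and the others were at 4.86% or less. Without replicates, whether neighbours in either order differ beyond error cannot be said.

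SMC1 had 28 peaks in the windows in TC-71 and 44 in TC-32, or 28 and 23 with lists of equal length. Of the TC-71 peaks 25 overlapped a TC-32 peak (89.3%, exact Clopper-Pearson interval 71.8 to 97.7%, counting error only), close to the 90.3% of the whole TC-71 list. Of the TC-32 peaks 25 overlapped a TC-71 peak (56.8%, 41.0 to 71.7%), against 50.3% of its whole list. With lists of equal length the shares in the windows were 71.4% of the TC-71 peaks (20 of 28) and 87.0% of the TC-32 peaks (20 of 23). Whole-list shares under that cut were not computed. The 25 pairs lay at the same place almost to the base, with a median distance of 11 bp between summits and 45 bp at most. In the lists as deposited, the cohesin sites of TC-71 were thus mostly also listed in TC-32, at about the rate of the whole lists.

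For H3K27ac, 41 of the 71 TC-71 domains overlapped a TC-32 domain (57.7%, 45.4 to 69.4%), against 67.3% of the whole TC-71 list. In TC-32 it was 32 of 49 (65.3%, 50.4 to 78.3%), against 47.1% of the whole TC-32 list. These overlaps need 1 bp only, and the TC-32 domains of the windows had a median width of 1.88 kb, against 1.27 kb in the whole list. With 50% of the peak covered the shares in the windows were 46.9% in TC-32 (23 of 49) and 50.7% in TC-71 (36 of 71). Counted in bases, 58.8% of the acetylated sequence of TC-71 and 45.7% of that of TC-32 was acetylated in both lines, where the whole lists give 65.1% and 42.5%. These shares mix windows with opposite patterns. They run from 0% of the TC-71 bases at SOX2 and 12.4% at EGR2 to 94.7% at BCL11B.

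Cohesin sites of the windows were often acetylated. Of the SMC1 peaks, 16 of 28 in TC-71 (57.1%, 37.2 to 75.5%) and 27 of 44 in TC-32 (61.4%, 45.5 to 75.6%) lay in an H3K27ac domain of the same line. Over the whole lists the shares are 13.6% in TC-71 and 25.9% in TC-32. Seen from the domains, 14 of 71 in TC-71 held an SMC1 peak (19.7%, 11.2 to 30.9%), against 8.84% of the whole list. In TC-32 it was 19 of 49 (38.8%, 25.2 to 53.8%), against 19.1%. Peaks of 1 window are neighbours and not independent, the windows hold more acetylated sequence than the genome, and the part of either in these shares was not tested. With lists of equal length the TC-32 share of acetylated SMC1 peaks in the windows was 30.4% (7 of 23). The whole-list share under that cut was not computed, so this value cannot be set against the 25.9%.

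**Figure D2:**
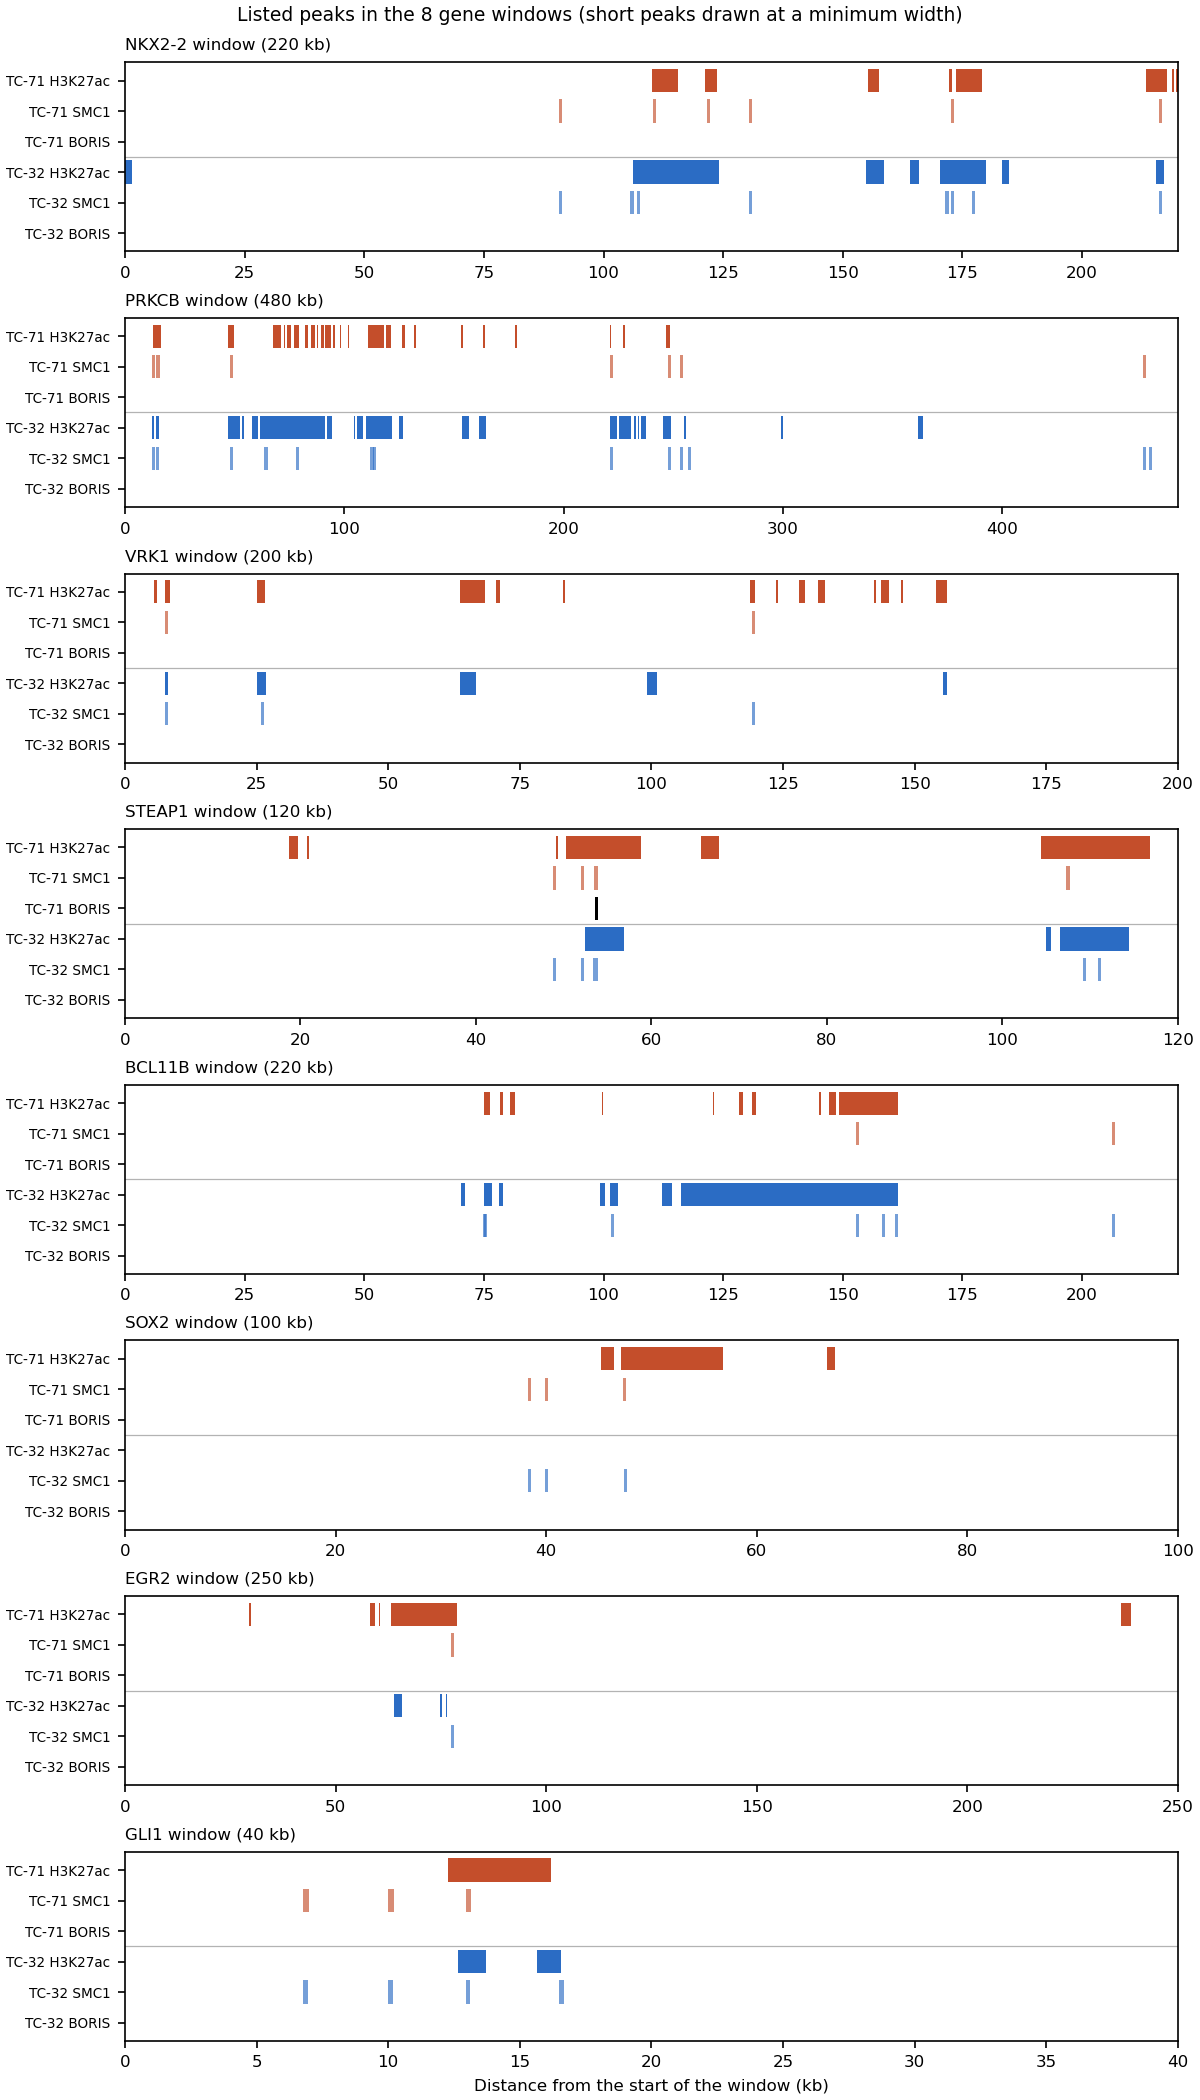
Listed H3K27ac domains, SMC1 peaks and BORIS peaks of TC-71 (red, upper tracks) and TC-32 (blue, lower tracks) in each window, against the distance in kb from the window's start; BORIS is black and short peaks are drawn at a minimum width. The only BORIS peak is at STEAP1 in TC-71, SOX2 has no H3K27ac track in TC-32, and the widest domains of BCL11B (45.3 kb) and PRKCB (29.4 kb) are in TC-32.

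NKX2-2 encodes a homeodomain factor that the fusion needs for transformation. TC-71 listed 8 domains over 20.9 kb, and TC-32 listed 7 over 37.6 kb. The highest-ranked domain of both lines covered the same place in the middle of the window. In TC-71 it ran on chromosome 20 from 21490062 to 21495508 (5.45 kb, fold enrichment over input 7.92, in the top 5.42% of its list), and a separate 2.55 kb domain followed at 21501262 to 21503810. In TC-32 a single domain spanned both and the gap between them, from 21486262 to 21504043 (17.8 kb, fold 8.49, top 7.11%). All folds given are the authors' values, ranks go by the authors' −log10 q within a list, and ranks from lists of different length do not show a change.

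Cohesin differed inside that stretch. TC-71 had SMC1 peaks at 21490481 to 21490730 (fold 7.74) and 21501951 to 21502080 (fold 5.25), and TC-32 listed neither. TC-32 had SMC1 at 21485780 to 21486142 (fold 13.2, top 10.1%) and 21486925 to 21487533 (fold 15.5, top 11.1%), 119 bp left of its wide domain and just inside it, and TC-71 listed neither. The TC-32 pair were the only SMC1 peaks of any window in the upper 25% of their list with no counterpart in the other line. The nearest TC-71 SMC1 peak was 2947 bp from the second of them. The highest-ranked TC-71 peak of the window was the common one at 21596273 to 21596459 (fold 7.61, top 28.0%), which had a fold of 11.2 (top 24.4%) in TC-32. In all, 4 of 6 TC-71 and 4 of 8 TC-32 SMC1 peaks of the NKX2-2 window were common, and with lists of equal length the difference in number turned to 1 more in TC-71. Further right, a 9.61 kb TC-32 domain with 3 SMC1 peaks overlapped TC-71 domains of 0.488 and 5.42 kb that held none. TC-71 did list SMC1 between these TC-71 domains, at 21552800 to 21552976 (fold 3.10, top 97.8%), 68 bp from the nearer. That peak was common to both lines.

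SOX2 encodes a high-mobility-group factor of stem cells and neural progenitors. TC-71 listed 3 domains at SOX2 over 11.6 kb and TC-32 listed none (0 kb). The main TC-71 domain ran on chromosome 3 from 181427118 to 181436765 (9.65 kb, fold 5.46, top 24.9%), with smaller ones of 1.22 and 0.769 kb on either side. It just enters the upper 25% of its list, and is 1 of 2 such domains in the 8 windows that TC-32 lacks. In TC-32 the nearest domain was 147.6 kb outside the window. In the lists as deposited SOX2 was the only window with acetylation in 1 line, and with a −log10 q of at least 5 or lists of equal length GLI1 was another, since no TC-32 domain was left there.

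SMC1 at SOX2 was listed in both lines. All 3 SMC1 peaks of TC-71 overlapped the 3 of TC-32. The highest-ranked in TC-71, at 181427327 to 181427630 (fold 14.4, top 6.74%), lay inside the main domain. Its TC-32 counterpart, at 181427389 to 181427671 (fold 11.96, top 14.5%), lay 199908 bp from any TC-32 domain. The cohesin site was therefore listed in both lines, and acetylation around it in TC-71 alone.

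BCL11B encodes a zinc-finger repressor known from T-cell and neuronal development. TC-71 listed 10 domains over 19.7 kb and TC-32 listed 7 over 54.0 kb. Most of the TC-32 sequence was a single domain on chromosome 14 at 99696184 to 99741516 of 45.3 kb (fold 5.62, top 18.6%), the 6th widest of the 36355 domains in its list. TC-71 had 6 domains inside that stretch, which together covered 16.3 kb or 35.9% of it. The widest of them was at 99729304 to 99741623 (12.3 kb, fold 5.40, top 13.6%) and reached the right end of the TC-32 domain, which covered 99.1% of it. The TC-71 bases were thus nearly all (94.7%) also acetylated in TC-32, while 34.5% of the TC-32 bases were acetylated in TC-71.

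SMC1 at BCL11B had 2 peaks in TC-71 and 7 in TC-32, and both TC-71 peaks were among the 7. One, at 99732987 to 99733160 in TC-71, was acetylated in both lines. The other, at 99786480 to 99786672 (fold 6.53 in TC-71, 12.1 in TC-32), was acetylated in neither and was the highest-ranked of the window in each line. The 5 peaks listed in TC-32 alone all lay in TC-32 domains, and the best of them reached the top 50.1% of the list. With lists of equal length both lines had the same number of SMC1 peaks here, a difference of 0.

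EGR2 encodes a zinc-finger factor of hindbrain and Schwann cell development, and variants near it are linked to Ewing sarcoma risk through a GGAA repeat. TC-71 listed 5 domains over 20.2 kb and TC-32 listed 3 over 2.5 kb, 8.07 times as much sequence in TC-71. The main TC-71 domain ran on chromosome 10 from 64563071 to 64578837 (15.8 kb, fold 5.86, top 18.03%) and was the 43rd widest of 26334. All 3 TC-32 domains lay inside it and covered 15.9% of it. Among them 2 ranked high in the TC-32 list. The widest, at 64563882 to 64565759, was 1.88 kb long with a fold of 7.46 (top 7.64%), and another of 0.307 kb had a fold of 5.59 (top 16.1%). The lines thus differed in the length listed, with domains of high rank in both. ADO and NRBF2 are the protein-coding neighbours of EGR2 in RefSeq (GRCh38.p14). Which gene these domains belong to, including the high-ranked TC-32 ones, was not determined.

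EGR2 had 1 SMC1 peak in each line, and it was the same site. At 64577727 to 64577996 in TC-71 (fold 12.53) and 64577602 to 64578054 in TC-32 (fold 16.8), it was in the top 4.50% of the TC-71 list and the top 3.73% of the TC-32 list. In TC-71 it lay inside the wide domain, near its right end. In TC-32 it was 1091 bp from the nearest domain.

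GLI1 encodes the zinc-finger effector of Hedgehog signalling. Its window, the shortest, held 3.91 kb of acetylation in 1 domain in TC-71 (9.77% of the window) and 1.94 kb in 2 domains in TC-32 (4.86%). The TC-71 domain on chromosome 12 at 57852279 to 57856187 had a fold of 3.47 (top 53.5%). The TC-32 domains, which overlap it near its ends, had folds of 2.58 and 2.76 (top 86.8% and 77.9%). All were below the list medians of 3.81 in TC-71 and 3.53 in TC-32, and with a −log10 q of at least 5 no TC-32 domain was left, a difference of 3.91 kb. The 3 SMC1 peaks of TC-71 were all listed in TC-32, which had 1 more, and with lists of equal length the difference turned to 1 more in TC-71. The highest-ranked was common, with a fold of 7.23 (top 26.2%) at 57846762 to 57846990 in TC-71 and 6.14 (top 35.3%) in TC-32. The common site at 57852966 to 57853151 was acetylated in both lines. INHBE and ARHGAP9 are the protein-coding neighbours of GLI1 in RefSeq (GRCh38.p14), and which gene these domains belong to was not determined.

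PRKCB encodes protein kinase C beta, a serine-threonine kinase of lipid signalling that the fusion is known to activate directly. TC-71 listed 24 domains over 39.5 kb and TC-32 listed 22 over 85.0 kb, 2.15 times as much sequence in TC-32. The difference of −45.5 kb (TC-71 minus TC-32) was −27.2 kb with lists of equal length. Numbers of domains were alike and their sizes were not, with a median of 1.14 kb in TC-71 and 2.18 kb in TC-32. The widest TC-32 domain, on chromosome 16 at 23861727 to 23891094 (29.4 kb, fold 4.45), was the 20th widest of its list. TC-71 had 8 domains in that stretch, covering 44.0% of it. The highest-ranked domain was the same in both lines, at 23910777 to 23918314 in TC-71 (7.54 kb, fold 5.59, top 20.4%) and 23909917 to 23921712 in TC-32 (11.8 kb, fold 7.50, top 5.92%).

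All 7 SMC1 peaks of TC-71 at PRKCB were also among the 13 of TC-32. The highest-ranked in each line was at 23812805 to 23813008 in TC-71 (fold 11.03, top 7.74%) and 23812789 to 23813021 in TC-32 (fold 10.6, top 9.44%), at the left end of the window. Inside the 2 widest TC-32 domains TC-32 listed 4 SMC1 peaks, with folds of 3.90 to 4.84, and TC-71 listed none (0). These ranked low, between the top 61.2% and 89.3% of the TC-32 list. With lists of equal length the difference in SMC1 peaks was 0.

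VRK1 encodes a nuclear kinase that phosphorylates chromatin proteins in dividing cells. TC-71 listed 14 domains over 16.6 kb and TC-32 listed 5 over 7.81 kb. The highest-ranked domain was common, on chromosome 14 at 97263699 to 97268316 in TC-71 (4.62 kb, fold 6.28, top 3.98%) and 97263670 to 97266669 in TC-32 (3.00 kb, fold 8.16, top 4.59%). Neither held an SMC1 peak. Of the 14 TC-71 domains 10 had no TC-32 counterpart, where the whole list has 32.7% without one, and their folds were between 2.65 and 3.79, below the list median. Both TC-71 SMC1 peaks were listed in TC-32. The highest-ranked in TC-71, at 97207788 to 97208098 (fold 5.87, top 21.4%, and 14.2 in TC-32), was acetylated in both lines. The other was at 97319270 to 97319470 (fold 6.43 in TC-71, 17.7 in TC-32) and was the highest-ranked in TC-32. That site lay in a TC-71 domain of 1.07 kb that ranked low (fold 2.90, −log10 q 3.12, top 79.6%), and 18240 bp from any TC-32 domain.

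STEAP1 encodes a six-transmembrane surface protein of the metalloreductase family that is studied as a target of antibodies in Ewing sarcoma. TC-71 listed 6 domains over 24.5 kb and TC-32 listed 3 over 13.03 kb, and every TC-32 base was acetylated in TC-71. The pair of main domains ranked high in TC-71, on chromosome 7 at 89780325 to 89788868 (8.54 kb, fold 9.62, top 1.72%) and 89834440 to 89846807 (12.4 kb, fold 8.27, top 4.64%). The main TC-32 domains inside them were at 89782400 to 89786920 (4.52 kb, fold 5.80, top 17.2%) and 89836556 to 89844413 (7.86 kb, fold 6.78, top 6.65%), and one of 0.654 kb (fold 3.48) lay beside the second. TC-71 also had a 1.07 kb domain at 89748697 to 89749768 (fold 6.33, top 15.7%) that TC-32 lacked. STEAP2, which encodes a related protein, is the next protein-coding gene in RefSeq, and the domains were not assigned to either gene. SMC1 had 4 peaks in TC-71 and 5 in TC-32, of which 3 were common, and with lists of equal length the difference turned to 2 more in TC-71.

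The single BORIS peak of the 8 windows was at STEAP1 in TC-71, at 89783662 to 89783754 (93 bp, fold 5.38, top 51.1% of 534 peaks). TC-32 had 0 of its 6 BORIS peaks in the windows. The site lay inside the first main domain and inside an SMC1 peak of TC-71 at 89783573 to 89783796 (fold 6.28, top 27.3%), with summits 9 bp apart. TC-32, with no BORIS peak there, had an SMC1 peak at the same site, at 89783356 to 89783928, with its higher summit 6 bp from that of BORIS. With a fold of 24.0 it was in the top 0.379% of the TC-32 list, the highest-ranked SMC1 peak of all 8 windows in either line. Acetylation was listed there in both lines as well. The share of all 534 TC-71 BORIS peaks that overlap SMC1 or H3K27ac is not given here. Whether this site is typical of the BORIS list therefore cannot be said. For the other windows the nearest TC-71 BORIS peak was 296.4 kb from GLI1 and 459.6 kb from BCL11B, and 2860 kb or more from the rest.

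**Figure D3:**
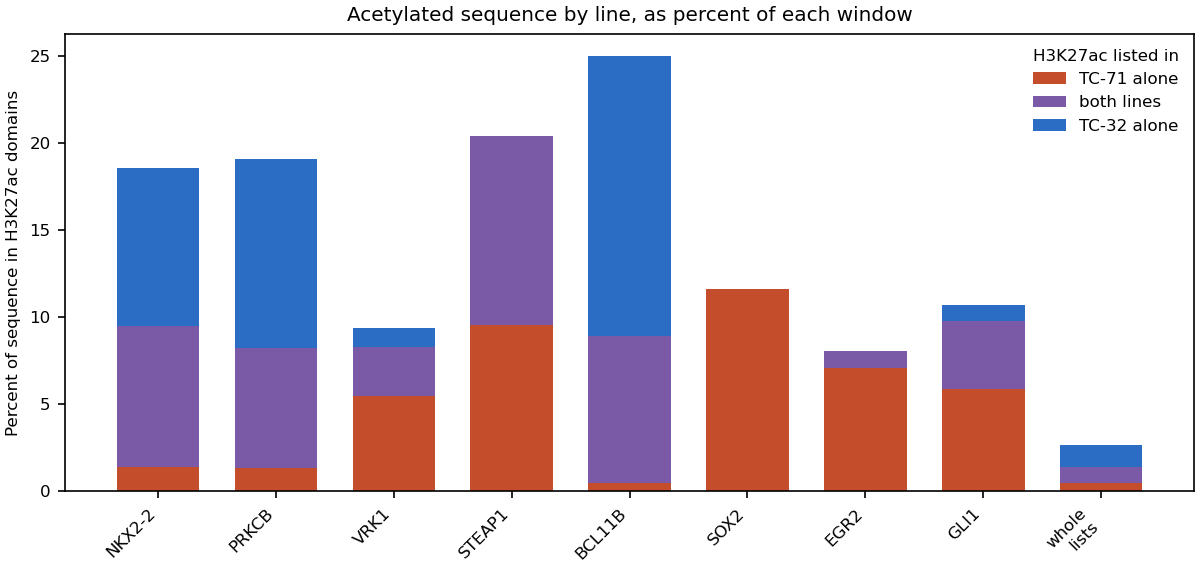
Share of each window, in percent of its sequence, that lay in H3K27ac domains of TC-71 alone (red), of both lines (purple) and of TC-32 alone (blue); the last bar gives the same for chromosomes 1 to 22 and X. NKX2-2, PRKCB and BCL11B are mostly blue and purple, SOX2 is all red (11.6 kb), and EGR2 has 17.7 kb in TC-71 alone beside 2.5 kb in both lines.

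Neighbouring domains were also stitched over gaps of up to 12500 bp and ranked by length times fold, as is done to find super-enhancers. Top clusters were those at or beyond the slope-1 point of the ranked curve, and 7 of 27 clusters of the windows were among them in TC-71, against 3.98% of all clusters. In TC-32 it was 7 of 21, against 4.03%. Wide clusters are the more likely to touch a window, so these counts are a description. TC-71 had top clusters in 6 windows, ranked 111 at PRKCB, 133 and 174 at STEAP1, 150 at EGR2, 278 at BCL11B, 416 at SOX2 and 520 at NKX2-2, of 16831. TC-32 had them in 4 windows, ranked 27 and 828 at PRKCB, 29 at BCL11B, 112, 391 and 557 at NKX2-2 and 788 at STEAP1, of 22370. EGR2 and SOX2 had a top cluster in TC-71 alone, and VRK1 and GLI1 in neither line. With clusters ranked by covered length NKX2-2 had none in TC-71 and STEAP1 none in TC-32. The rank 557 cluster at NKX2-2 spans 20.7 kb, of which 1.47 kb lies in the window.

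**Figure D4:**
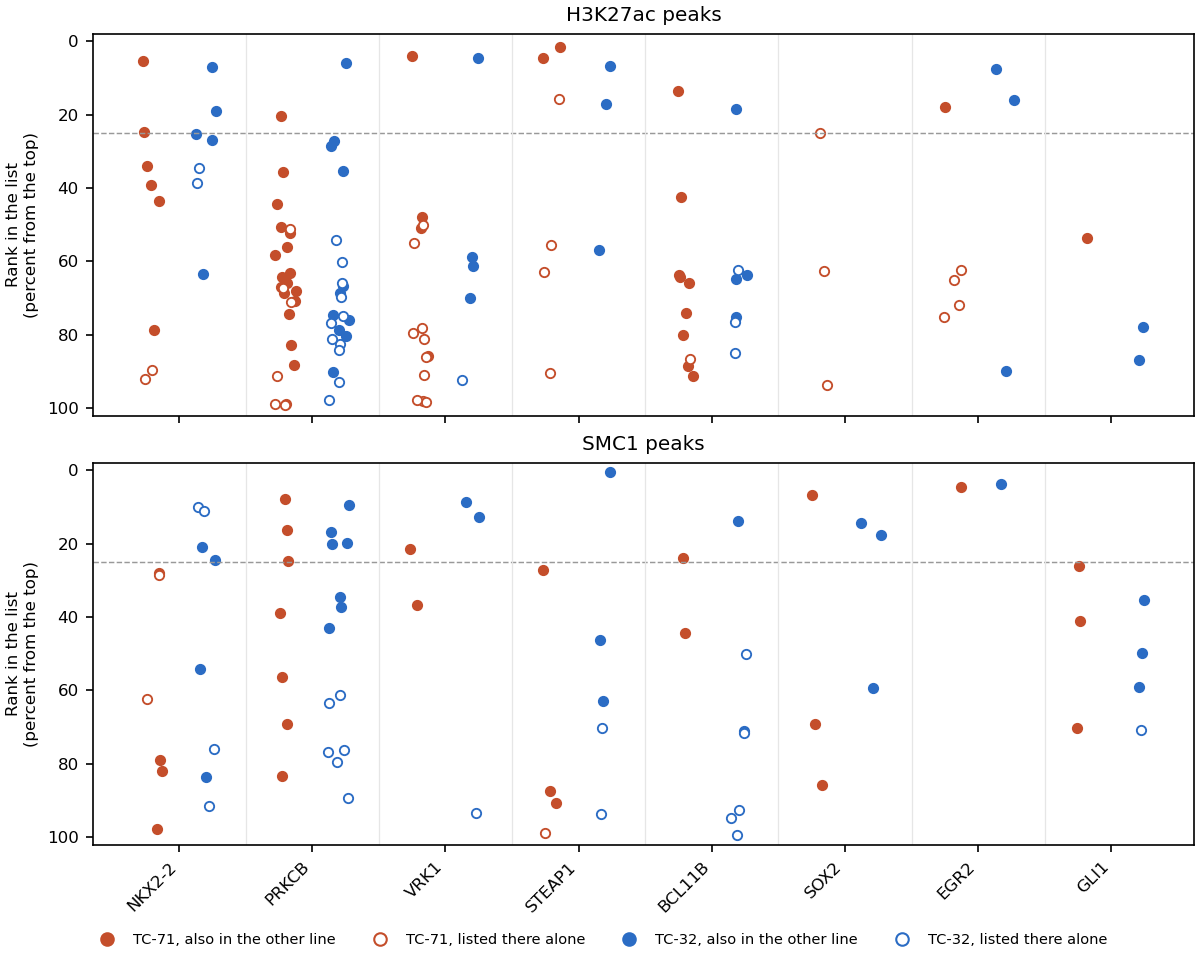
Rank of each H3K27ac domain (upper panel) and SMC1 peak (lower panel) of the windows within its own list by −log10 q, in percent from the top, for TC-71 (red) and TC-32 (blue); filled points overlap a peak of the other line and the dashed line marks the upper 25%. Open points are mostly low in the lists, and the 4 above the line are the TC-71 domains at STEAP1 and SOX2 and the TC-32 SMC1 pair at NKX2-2.

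Peaks listed in 1 line alone were low in its list in these windows and in the whole lists. Their median rank in TC-71 was the top 78.8% for the 30 H3K27ac domains of the windows, against 75.0% for the whole list, and 62.4% for the 3 SMC1 peaks, against 77.2%. The TC-32 values were 76.5% for 17 domains, against 67.6%, and 76.1% for 19 SMC1 peaks, against 71.7%.

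In TC-71 10 domains and 7 SMC1 peaks of the windows were in the upper 25%, and in TC-32 9 domains and 15 SMC1 peaks. No counterpart in the other line was listed for 2 of the 10 TC-71 domains, at SOX2 and STEAP1, where the whole list gives 1.97% of its upper 25%, and for 0 of the 7 TC-71 SMC1 peaks, where it gives 1.51%. Of the TC-32 members it was 0 of the 9 domains, against 7.46%, and 2 of the 15 SMC1 peaks, both at NKX2-2, against 8.56%. With so few peaks these shares are a description. The median rank of all members stood at the top 65.9% for H3K27ac and 42.8% for SMC1 in TC-71, and at 64.7% and 52.1% in TC-32. More of the listed domains in these windows were thus below the middle of their list than above it.

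Acetylation and cohesin could be set side by side at the 25 common SMC1 sites. Of these, 9 were acetylated in both lines, 10 in neither, 4 in TC-71 alone and 2 in TC-32 alone. Over all 16500 common pairs of the lists 10.1% were acetylated in both lines, 81.4% in neither, 3.16% in TC-71 alone and 5.39% in TC-32 alone. The 4 were at VRK1, STEAP1, SOX2 and EGR2, windows with more acetylation in TC-71, and the 2 were at NKX2-2 and PRKCB, windows with more in TC-32. The sites and the windows are judged by the same domains, so this match is no separate result. At STEAP1, SOX2 and EGR2 no sequence (0 kb) was acetylated in TC-32 alone. The distance to acetylation in the line without it varied. It was 199908 bp at SOX2, 18240 bp at VRK1 and 1091 bp at EGR2 in TC-32, but 134 bp at STEAP1 in TC-32, and 68 bp at NKX2-2 and 198 bp at PRKCB in TC-71. The last 3 sites lie beside a domain edge, and the SOX2 and VRK1 sites lie apart from acetylation in TC-32. The EGR2 site stands between these, and the TC-32 domain nearest to it ranked high (fold 5.59, top 16.1%). No cutoff in distance was set. Domains of low rank gave the calls at VRK1 in TC-71 (fold 2.90, −log10 q 3.12, top 79.6%) and at PRKCB in TC-32 (fold 2.74, −log10 q 3.62, top 74.5%). Both fall below the −log10 q minimum of 5. Several of the calls in both lines also need such a domain, at NKX2-2 (TC-32, −log10 q 4.47), VRK1 (TC-32, 4.93) and GLI1 (TC-32, 2.90). At PRKCB the sites from 23812805 and 23814959 need a TC-71 domain at 4.17 and TC-32 domains at 2.73 and 3.25. The PRKCB site from 24048017 needs a TC-71 domain at 4.90. The 10.1% of all pairs was not computed again under that minimum.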

How the data were processed

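Peaks of BORIS, SMC1 and H3K27ac in TC-71 and TC-32 cells were taken from the 6 lists the authors deposited, each called against input of the same line per the labels. Without roles or settings, MACS2 2.1.1, deepTools 2.2.4, Picard, SAMtools 1.3.1, STAR 2.5.1b and hg19 are listed per the submitters' processing notes; how the 2 samples of a group were combined is not given in the sources used here. Each deposited peak carries a score (10 times the −log10 q, without decimals), a fold enrichment, a −log10 p and a −log10 q, all the authors' values; ranks go by −log10 q, with ties broken by −log10 p. Lists called separately can differ in depth, which is unknown, so folds and ranks describe peaks within a list, and covered lengths and peak counts set side by side between lines also carry differences in list length and depth.

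Narrow peaks with several summits were counted once, with the summit of highest −log10 q, which removed 1807 lines; 30 intervals outside chromosomes 1 to 22 and X were left out. A peak was a member if it overlapped a window by 1 bp; covered sequence was clipped to the window. Coordinates are hg19, counted from 1, and chromosome lengths came from GenomeInfoDb 1.38.1. No hg19 annotation was used, so other fusion targets were not analysed here and no gene was assigned to a peak. Named peaks are the highest-ranked of each window and list, every BORIS peak, and line-specific peaks in the upper 25% of a list; further peaks, such as those inside wide domains, were chosen after their values were seen. The windows and lists of genes were chosen with earlier results of these data known. Computation used matplotlib 3.10.9, scipy 1.17.1, pandas 2.3.3, numpy 2.4.6 and Python 3.11.15. Overlap, coverage and stitching code was tested on simulated intervals. Alternatives were cutting both lists of an antibody to the length of the shorter, by −log10 p (lists of equal length), a −log10 q minimum of 5, 50% of a peak covered, windows widened by 50 kb, merging within 1 kb, stitching at 5 kb and ranking clusters by covered length.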

Additional observations from a re-analysis of the deposited data

How the results depend on the processing

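No paired analysis was possible because each list stands for both samples of a group and gives no value per sample; for the same reason no replicate could be left out. Of 116 alternative values, 90 stayed within 1.5 times the main value or within the interval of the main share, 23 moved and 3 reversed. The difference in acetylated sequence between the lines kept its direction in every window under a −log10 q minimum of 5, lists of equal length and windows widened by 50 kb. The causes of changes were not tested, beyond what fewer peaks bring by construction. Shares over the whole lists were not computed again under any alternative.

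Domains kept by a −log10 q minimum of 5 numbered 24 in TC-71 and 18 in TC-32 for H3K27ac. This minimum put 32.4% of TC-32 SMC1 peaks in H3K27ac, and gave TC-71 minus TC-32 differences of 3.91 kb of H3K27ac at GLI1, and of 0 SMC1 peaks at VRK1 and −2 at BCL11B. Lists of equal length left 30 TC-32 H3K27ac domains, 23 TC-32 SMC1 peaks over 6.85 kb and 0 TC-71 BORIS peaks. They gave 71.4% of TC-71 and 87.0% of TC-32 SMC1 peaks in both lines, and 30.4% of TC-32 SMC1 peaks in H3K27ac. The differences were then −27.2 kb of H3K27ac at PRKCB and 3.91 kb at GLI1. In SMC1 peaks they reversed to 1 at NKX2-2, 2 at STEAP1 and 1 at GLI1, and were 1 at SOX2 and 0 at PRKCB, VRK1 and BCL11B, so the larger number of SMC1 peaks in TC-32 did not hold with lists of equal length. With 50% of the peak covered, 46.9% of TC-32 domains were shared. Windows widened by 50 kb gave differences of 24.9 kb at STEAP1 and 3.50 kb at GLI1, and of −2 SMC1 peaks at STEAP1. Ranking clusters by covered length left top clusters in 5 windows of TC-71, without NKX2-2, and 3 of TC-32, without STEAP1.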
